A study of Rattus norvegicus with 40 samples.

Results

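The xenobiotic sensors of the rat liver and their partners were followed through diethylnitrosamine (DEN) carcinogenesis. Members were taken by gene symbol, and 9 symbols were named: Ahr, Arnt, Ahrr, Tiparp, Nr1i2, Nr1i3, Nfe2l2, Keap1 and Por. Of these, 8 had a row among the 17337 genes of the count files, and Tiparp was not analysed here. Ahrr was too low to be tested, so that 7 members entered the tests.

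Fischer 344 male rats, 7 weeks old at the start, received 50 mg/kg DEN by weekly intra-peritoneal injection. Livers were taken after 8 weeks of injections, after 14 weeks, or at 20 weeks, that is after 14 weeks of injections and 6 weeks without DEN. Non-tumoral liver (NT) was sequenced at all 3 time points and nodules at 14 and 20 weeks. Rats of the same ages without DEN (no DEN) were the controls. Each of the 8 groups held 4 rats, and the nodule groups held 2 nodules of each rat, whose counts were summed, so that every comparison set 4 rats against 4. NT and nodules came from the same rats, and both were compared with the same no DEN rats. Of the 24 rats, those numbered with F occurred only among DEN-treated animals (2 at 8 weeks, 1 at 14 weeks and 1 at 20 weeks), and what the letter stands for is not given in the sources used here. All libraries were of bulk RNA.

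Background on the pathways is as follows. AHR is a ligand-activated transcription factor that waits in the cytoplasm with HSP90. Once a planar aromatic ligand binds, it enters the nucleus, pairs with ARNT and switches on genes such as Cyp1a1, among them its own repressors Ahrr and Tiparp. PXR (gene Nr1i2) and CAR (gene Nr1i3) are nuclear receptors that pair with RXR and drive the Cyp3a and Cyp2b drug oxidases. NRF2 (gene Nfe2l2) pairs with small MAF proteins at antioxidant response elements, and KEAP1 marks it for degradation until electrophiles modify KEAP1. POR passes electrons from NADPH to every microsomal P450. AHR, CAR and NRF2 are controlled to a large extent by where the protein is and how long it lasts, which transcript levels do not measure.

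Sequencing depth lay between 20528515 and 160622633 counted read pairs per library, with a median of 30477421. Levels are given as CPM, the counts scaled to a common library size by TMM. A gene was called changed where its adjusted p did not exceed 0.05 and its log2 fold change reached 0.5 in either direction. The test was the quasi-likelihood one of edgeR, and p values were adjusted over all genes tested by the method of Benjamini and Hochberg. The hepatocyte markers Alb, Ttr, Apoa1, Serpina1, Cps1, Tat, Pck1 and Asgr1 were detected in every group. Among the markers of other liver cells, Col1a2 had no count in any group and Mpo none in no DEN livers at 14 and 20 weeks. Nodule 1 of rat F06 stood apart from the other 14-week nodules, with a median correlation of log2 CPM of 0.905 against the libraries of its group. Of its read pairs, 34.5% did not lie fully in the exons of any gene, the highest share of the 40 libraries. Nodule 1 of rat F03 followed, with a median correlation of 0.95. Values without these rats are given where they change the call of a member.

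The plot of levels by rat shows every measured member.

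**Figure D1:**
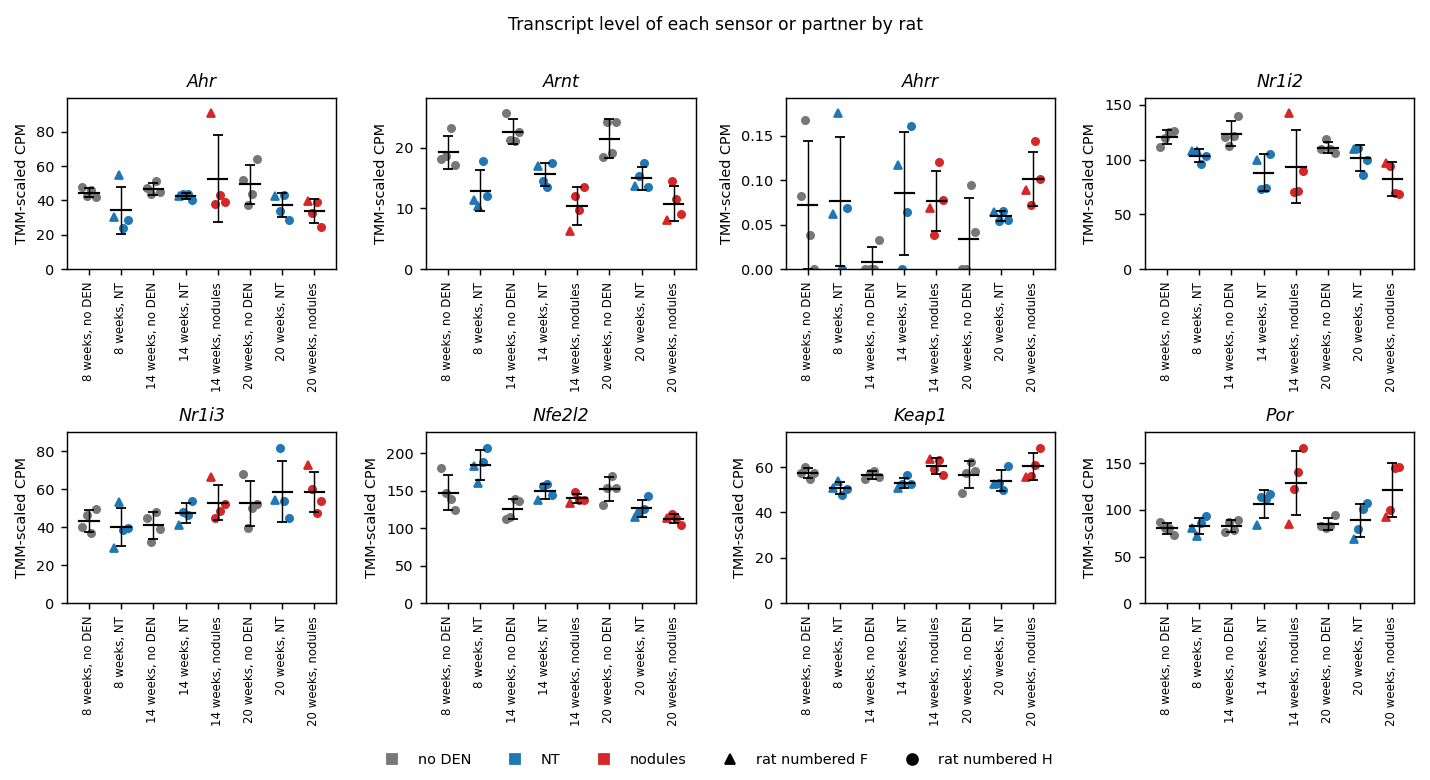
Level of each member (TMM-scaled CPM, linear axis from 0, 1 panel per gene) in the 8 groups. Each point is 1 rat (n = 4 per group, nodules of a rat summed), the horizontal bar is the mean, the whiskers are 1 SD, and in Ahrr the whiskers are cut at 0. Arnt steps down from no DEN to NT to nodules, Por is highest in nodules, and in Ahr the nodules of rat F06 lie at 90.6 CPM while the other 3 rats lie between 38.2 and 43.1.

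Promoters of 3 members and of 1 target are shown because the results below turn on their genes: Arnt, the member that fell most, Por, the member that rose, Ahrr, an AHR target by background, and Gstp1, the NRF2 target with the highest rise after Slc7a11, whose counts in no DEN livers were 9 or fewer per rat. The sequences are the 250 bases before the transcription start, in the direction of transcription, from RefSeq on GRCr8, which is not the rn6 build the read counts were made on. They lie at chr2:185686453-185686702 (Arnt, plus strand), chr1:30821969-30822218 (Ahrr, plus strand), chr12:26635810-26636059 (Por, minus strand) and chr1:210769706-210769955 (Gstp1, minus strand). Capitals mark the core of the xenobiotic response element, GCGTG, and that of the antioxidant response element, TGACNNNGC, on either strand.
Arnt: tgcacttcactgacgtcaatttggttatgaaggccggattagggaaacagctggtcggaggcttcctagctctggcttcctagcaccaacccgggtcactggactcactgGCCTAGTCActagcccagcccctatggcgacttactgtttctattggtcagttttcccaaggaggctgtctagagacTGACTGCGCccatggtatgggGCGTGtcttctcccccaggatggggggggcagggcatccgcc
Ahrr: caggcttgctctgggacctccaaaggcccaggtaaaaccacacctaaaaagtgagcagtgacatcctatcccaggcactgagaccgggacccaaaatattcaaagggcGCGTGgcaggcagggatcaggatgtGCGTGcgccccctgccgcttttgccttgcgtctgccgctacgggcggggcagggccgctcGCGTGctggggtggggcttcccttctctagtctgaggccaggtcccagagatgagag
Por: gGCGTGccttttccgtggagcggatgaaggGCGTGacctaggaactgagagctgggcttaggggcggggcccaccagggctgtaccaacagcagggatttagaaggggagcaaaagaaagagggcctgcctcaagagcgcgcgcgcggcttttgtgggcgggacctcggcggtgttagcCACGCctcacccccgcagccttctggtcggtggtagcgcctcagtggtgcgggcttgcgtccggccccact
Gstp1: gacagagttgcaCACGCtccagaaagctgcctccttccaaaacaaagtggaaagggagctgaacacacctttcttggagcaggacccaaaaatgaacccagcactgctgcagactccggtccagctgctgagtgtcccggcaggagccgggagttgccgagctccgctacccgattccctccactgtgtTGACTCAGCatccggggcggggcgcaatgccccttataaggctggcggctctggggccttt
Arnt held 1 xenobiotic core, 42 bases before the start, and 2 antioxidant cores, 140 and 63 bases before it. Ahrr and Por held 3 xenobiotic cores each. Gstp1 held 1 of each kind, and its antioxidant core began 61 bases before the start. All 9 member symbols matched a RefSeq promoter, of which 5 held a xenobiotic core and 1, that of Arnt, an antioxidant core. Among all 33469 promoters of this length, 25.9% held the first and 10.1% the second. A match describes these letters and does not show that a factor binds there.

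ARNT, the common partner that AHR needs to bind DNA, was the member whose transcript fell in most comparisons. In no DEN livers Arnt measured 18.1, 18.6, 23.2 and 17.1 CPM at 8 weeks. In NT at 8 weeks it measured 11.3, 10.5, 17.9 and 12.1 CPM, so that 1 NT rat lay within the range of the controls. The log2 fold change was -0.58 (SE 0.171, adjusted p = 0.0248, edgeR).
At 14 weeks no DEN livers held 25.7, 21.3, 21.2 and 22.6 CPM, NT held 16.99, 14.5, 13.5 and 17.5 CPM, and nodules held 6.24, 12, 9.79 and 13.5 CPM. Neither NT nor nodules overlapped with the controls, and NT and nodules just met, at 13.5 CPM. Arnt fell by 0.51 on the log2 scale in NT (SE 0.097, adjusted p = 0.00127, edgeR) and by 1.15 in nodules (SE 0.212, adjusted p = 0.00191, edgeR), the latter a 2.21-fold lower level.
At 20 weeks, 6 weeks after the last injections, no DEN livers held 18.4, 24.3, 19.2 and 24.2 CPM, NT held 13.6, 15.4, 17.5 and 13.5 CPM, and nodules held 8.18, 14.5, 11.5 and 9.09 CPM. Both DEN tissues again lay below every control, while NT and nodules overlapped. Nodules were 2.01-fold lower than the controls (log2 fold change -1.01, SE 0.184, adjusted p = 0.00149, edgeR). The log2 fold change of NT was -0.50 (SE 0.12, adjusted p = 0.0121, edgeR), just short of the minimum size before rounding, so Arnt was not called there. It was called there by DESeq2 (log2 fold change -0.53, adjusted p = 0.0013).

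Across the groups Arnt was ordered from 22.7 ± 2.08 CPM (SD, n = 4) in no DEN livers at 14 weeks down to 10.4 ± 3.16 in nodules at 14 weeks, a 2.18-fold span. The 3 no DEN groups came first, the 3 NT groups next and both nodule groups last. Neighbours within each kind of tissue differed by less than their spread.
Fewer cells of a type and less RNA per cell cannot be told apart in bulk liver. At 14 weeks the summed level of the 8 hepatocyte markers moved in the same direction, from 231300 to 262900 CPM in no DEN rats at 14 weeks to 143100 to 184100 in NT and 124000 to 152400 in nodules. One by one, 5 of the 8 were called lower and 1 higher (Apoa1) in NT at 14 weeks, and 6 and 1 in nodules. In NT at 20 weeks 0 were lower and 1 higher, and the sums, 178100 to 241700 CPM, overlapped with the 237900 to 272700 of the controls, while in nodules at 20 weeks 5 were lower and 1 higher, with sums of 113600 to 179700 CPM and no overlap. In NT at 8 weeks 2 were lower and 0 higher, with sums of 193200 to 242700 CPM against 246200 to 258400. Over the groups of 14 weeks the summed level of 4 cholangiocyte markers went from 15.8 to 22.9 CPM up to 36.5 to 84.6 and 60.2 to 113, respectively. Stellate cell and fibroblast markers (7 genes, of which Col1a2 had no count) summed to 200.3 to 256 CPM in these controls, 362 to 461 in NT and 409 to 467 in nodules. Of the 6 of them tested at 14 weeks, 5 were called higher and 1 lower in NT, and 4 higher and 0 lower in nodules. Endothelial markers (6 genes) summed to 89.2 to 137, 183 to 228 and 181 to 221. Macrophage markers overlapped between the 3 groups, at 337 to 502, 316 to 843 and 327 to 706 CPM. Lymphocyte markers (6 genes) summed to 2.16 to 3.16, 3.68 to 6.53 and 3.12 to 9.53 CPM, and neutrophil markers (4 genes) to 1.24 to 2.78, 3.53 to 12.1 and 2.56 to 24.4. Both were without overlap between these controls and NT.
At 8 weeks the summed markers of cholangiocytes (18.3 to 21.8 CPM in no DEN livers, 27.6 to 34.6 in NT), stellate cells and fibroblasts (205 to 244, 341 to 456), endothelial cells (92.3 to 149, 185 to 196), lymphocytes (2.704 to 4.28, 6.37 to 8.52) and neutrophils (1.08 to 2.69, 6.92 to 15.7) were all higher in NT without overlap, and those of macrophages overlapped. At 20 weeks cholangiocyte markers were at 17.5 to 21.9 CPM in no DEN livers, 32.9 to 52.6 in NT and 67.6 to 180.1 in nodules. Stellate and fibroblast markers (169 to 219, 229.9 to 249 and 261 to 323) and endothelial markers (63.5 to 157, 168 to 220.0 and 169 to 229.7) were also without overlap with the controls in both tissues, lymphocyte and neutrophil markers in NT but not in nodules, and macrophage markers in neither. The part of these cell types in the differences of Arnt and of every other gene below was not tested.
The calls in NT depended on single rats. At 8 weeks the call of Arnt was lost without F09, F10, H07 or H18 (log2 fold changes -0.52, -0.49, -0.48 and -0.55, with adjusted p of 0.0648, 0.0585, 0.0726 and 0.0633). Without both rats numbered F, which occur only among DEN-treated animals, Arnt at 8 weeks stood at -0.35 (adjusted p = 0.156, edgeR). The call was also lost at 14 weeks without H09, H21 or H22, where the adjusted p stayed at 0.00433, 0.00479 and 0.00368 and the fold change fell below the minimum size.
Genes whose log2 CPM followed that of Arnt most closely over the 32 values of rat and tissue were Cul4a (r = 0.982), Bbox1 (r = 0.973) and Slc7a2 (r = 0.972), out of 10066 genes. These values share libraries, depth and treatment groups, and the correlations are a description only.

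AHR itself, the receptor, was called lower in nodules at 20 weeks and in no other comparison. In no DEN livers Ahr measured 42.1 to 47.7 CPM at 8 weeks, 43.6 to 51.2 at 14 weeks and 37.5 to 64.1 at 20 weeks. In NT at 8 weeks it measured 30.2, 54.5, 24.1 and 28.8 CPM, where rat F10 lay above every control and the other 3 below. The log2 fold change was -0.38 (SE 0.218, adjusted p = 0.203, edgeR) and was -0.69 without F10 (adjusted p = 7.24e-04, edgeR) and -0.74 without both rats numbered F (adjusted p = 0.00103, edgeR), which would be called.
NT at 14 weeks held 42.7, 43.7, 44.0 and 40.3 CPM, overlapping with its controls (log2 fold change -0.10, SE 0.0672, adjusted p = 0.24, edgeR). Nodules of the same rats held 90.6, 38.2, 43.1 and 39.0 CPM. The single high value was that of rat F06, whose nodules 1 and 2 held 127.5 and 65.4 CPM when taken one by one. The log2 fold change of the nodules was 0.16 with a 95% interval from -0.45 to 0.76 and turned to -0.21 without F06, with an adjusted p of 0.0221 by edgeR and a size below the minimum.
At 20 weeks NT held 42.3, 34.1, 43.3 and 28.7 CPM and nodules 39.8, 32.6, 38.9 and 24.3 CPM, against 51.8, 37.5, 43.9 and 64.1 in the controls. The nodules fell (log2 fold change -0.56, SE 0.188, adjusted p = 0.029, edgeR), although they overlapped with the controls. That call was lost without H13, H16 or H28 (adjusted p = 0.059, 0.0883 and 0.0609), with nodule 1 alone (0.081) and with all 8 groups in 1 fit (0.0507).
The genes most alike to Ahr over the 32 values were Ccdc125 (r = 0.733), Tmem260 (r = 0.699) and Inpp5k (r = 0.696), weaker likenesses than those of Arnt.

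Ahrr encodes the AHR repressor, itself switched on by AHR. It had 0 to 4 counts per rat in no DEN livers, 0 to 11 in NT and 3 to 9 in nodules, so that its highest level was 0.175 CPM. In no DEN livers at 14 weeks 3 of 4 rats had no count and the other had 1. Every nodule pair of that week had at least 3, at 0.0688, 0.0389, 0.12 and 0.078 CPM, and did not overlap with the controls of that week. Each pair is a sum of 2 libraries. Taken singly, nodule 1 of H21 and of H23 had 1 count each, 0.0253 and 0.0252 CPM, below control rat H12 at 0.0331. At 20 weeks nodules and controls overlapped. No DEN rat H06 at 8 weeks, at 0.168 CPM, lay above every nodule pair, of which the highest was 0.144. Ahrr was not tested, and no fold is given at these counts.

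PXR, the sensor of steroids and drugs that drives Cyp3a genes, was lower in NT at 8 and 14 weeks and in nodules at 20 weeks without being called. Nr1i2 measured 112, 120.1, 125 and 126 CPM in no DEN livers at 8 weeks and 108, 108, 96.1 and 103 in NT, with no overlap (log2 fold change -0.22, SE 0.0724, adjusted p = 0.0343, edgeR). At 14 weeks no DEN livers held 121, 113, 122 and 139.7 CPM and NT held 99.4, 73.1, 74.0 and 106, again with no overlap (log2 fold change -0.46, SE 0.127, adjusted p = 0.0111, edgeR). Both differences passed the p threshold and were smaller than the minimum size. At 14 weeks Nr1i2 passed that size without F06 (-0.54, adjusted p = 0.00663), H10 (-0.51, adjusted p = 0.0163) or H23 (-0.56, adjusted p = 0.0041).
Nodules at 14 weeks held 142 CPM in rat F06 and 70.9, 71.5 and 89.97 in the others. With F06 the log2 fold change was -0.42 (SE 0.217, adjusted p = 0.133, edgeR), and without it -0.67 (adjusted p = 1.11e-04, edgeR), which would be called.
At 20 weeks no DEN livers held 110.0, 119, 109.5 and 106 CPM and NT held 109.8, 111, 85.6 and 99.4, a difference within the spread (log2 fold change -0.11, SE 0.0927). Nodules held 96.8, 94.3, 69.1 and 69.1 CPM, all below the controls (log2 fold change -0.45, SE 0.133, adjusted p = 0.0169, edgeR). This too was below the minimum size, and it passed it without F03 (-0.52, adjusted p = 0.00876) or without H25 (-0.53, adjusted p = 0.00752), and with nodule 2 alone (-0.58, adjusted p = 0.00899). Xylb (r = 0.927), Prodh2 (r = 0.925) and Lcn12 (r = 0.923) were the genes most alike to Nr1i2.

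CAR, the phenobarbital-responsive sensor that drives Cyp2b genes, was not called in any comparison, and its unadjusted p was above 0.05 in all of them. Nr1i3 ranged from 32.2 to 68.1 CPM in no DEN livers, from 28.9 to 81.8 in NT and from 44.97 to 72.5 in nodules, and the groups overlapped throughout. Against no DEN livers of the same week the largest log2 fold change was 0.35, in nodules at 14 weeks, with a 95% interval from -0.01 to 0.70 (adjusted p = 0.0952, edgeR). Group means ran from 40.1 ± 9.94 CPM (SD, n = 4) in NT at 8 weeks to 58.7 ± 16 in NT at 20 weeks, where rat H25 alone reached 81.8.

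NRF2, the regulator of antioxidant and conjugation genes, was not called by edgeR in any comparison with all rats and both nodules, and the sign of its difference from no DEN livers turned between 14 and 20 weeks. Nfe2l2 measured 179, 147, 139 and 125 CPM in no DEN livers at 8 weeks and 182, 159.6, 188 and 207 in NT, which overlapped (log2 fold change 0.32, SE 0.118, adjusted p = 0.056, edgeR). At 14 weeks the controls held 113, 114, 139 and 136 CPM, NT 138, 156, 159 and 144, and nodules 134, 149, 138 and 138. NT was higher by a log2 fold change of 0.28 (SE 0.0877, adjusted p = 0.0181, edgeR), below the minimum size, and nodules by 0.13 (SE 0.095, adjusted p = 0.265, edgeR).
At 20 weeks the controls held 131, 154, 169 and 154 CPM, NT 115, 121, 126 and 142, and nodules 114, 118, 113 and 104. Here the values of both DEN tissues were below those of the controls on average and those of nodules in every rat. The log2 fold change was -0.25 in NT (SE 0.101, adjusted p = 0.0916, edgeR) and -0.45 in nodules (SE 0.102, adjusted p = 0.00433, edgeR), the latter past the p threshold and below the minimum size. The nodules passed that size without H13 (-0.53, adjusted p = 0.00315) or with nodule 1 alone (-0.53, adjusted p = 0.00319).
The difference between weeks was tested as an interaction of treatment and week. The NT effect at 20 weeks differed from that at 14 weeks by -0.53 (SE 0.134, adjusted p = 0.0741, edgeR), and the nodule effect by -0.60 (SE 0.134, adjusted p = 0.244, edgeR). Neither passed in edgeR with all rats, and both passed in DESeq2 (adjusted p = 0.0108 and 0.0075). The NT difference of Nfe2l2 also passed in edgeR without F06 (-0.56, adjusted p = 0.0387), H13 (-0.59, adjusted p = 0.048) or H28 (-0.59, adjusted p = 0.0317). The no DEN livers of these weeks, which enter both differences, themselves measured 125 ± 13.7 and 152 ± 15.8 CPM (log2 fold change 0.28, adjusted p = 0.629, edgeR).
Nfe2l2 was followed most closely by Ccl9 (r = 0.782), Phlda3 (r = 0.767) and Axin2 (r = 0.743).

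KEAP1, the adaptor that delivers NRF2 for degradation, was the steadiest member, with a span of 1.2-fold between its highest and lowest group means. Keap1 measured 57.4, 60.1, 54.7 and 57.6 CPM in no DEN livers at 8 weeks and 50.6, 54.0, 47.6 and 50.3 in NT, without overlap (log2 fold change -0.19, SE 0.0657, adjusted p = 0.0468, edgeR). At 14 and 20 weeks the log2 fold changes against no DEN lay between -0.06 and 0.08 and none passed the p threshold.

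POR, the reductase that feeds every microsomal P450, was the member that rose. Por measured 76.4, 87.3, 78.9 and 89.3 CPM in no DEN livers at 14 weeks, 84.4, 114, 111 and 117 in NT and 84.8, 122, 141 and 167 in nodules. The lowest value of both DEN tissues was that of rat F06, which lay within the controls, and the other 3 rats lay above every control. Nodules rose 1.53-fold (log2 fold change 0.61, SE 0.18, adjusted p = 0.0197, edgeR), and NT differed by 0.39 (SE 0.103, adjusted p = 0.0078, edgeR), below the minimum size.
The call in nodules was lost without H09, H11 or H23 (log2 fold changes 0.57, 0.58 and 0.48, with adjusted p of 0.0593, 0.0571 and 0.0449, edgeR), and without F06 the log2 fold change was 0.79.
At 20 weeks the controls held 83.1, 80.4, 82.3 and 94.2 CPM, NT 68.4, 79.8, 101 and 107, and nodules 92.5, 100.2, 145 and 146. NT straddled the controls (log2 fold change 0.09, SE 0.134), and nodules were above all controls except for rat F03, at 92.5 (log2 fold change 0.49, SE 0.151, adjusted p = 0.0202, edgeR). That value passed the minimum size without F03 (0.62, adjusted p = 0.00531), H16 (0.53, adjusted p = 0.0321) or H25 (0.56, adjusted p = 0.00996), with all 8 groups in 1 fit (0.51, adjusted p = 0.0103) and with nodule 2 alone (0.59, adjusted p = 0.0344). At 8 weeks Por did not differ beyond the spread, at 87.0, 80.7, 80.2 and 73.0 CPM in no DEN livers and 80.5, 72.5, 85.6 and 93.5 in NT.
Riok3 (r = 0.911), Wdr1 (r = 0.91) and Smarca4 (r = 0.91) were the genes most alike to Por.

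**Figure D2:**
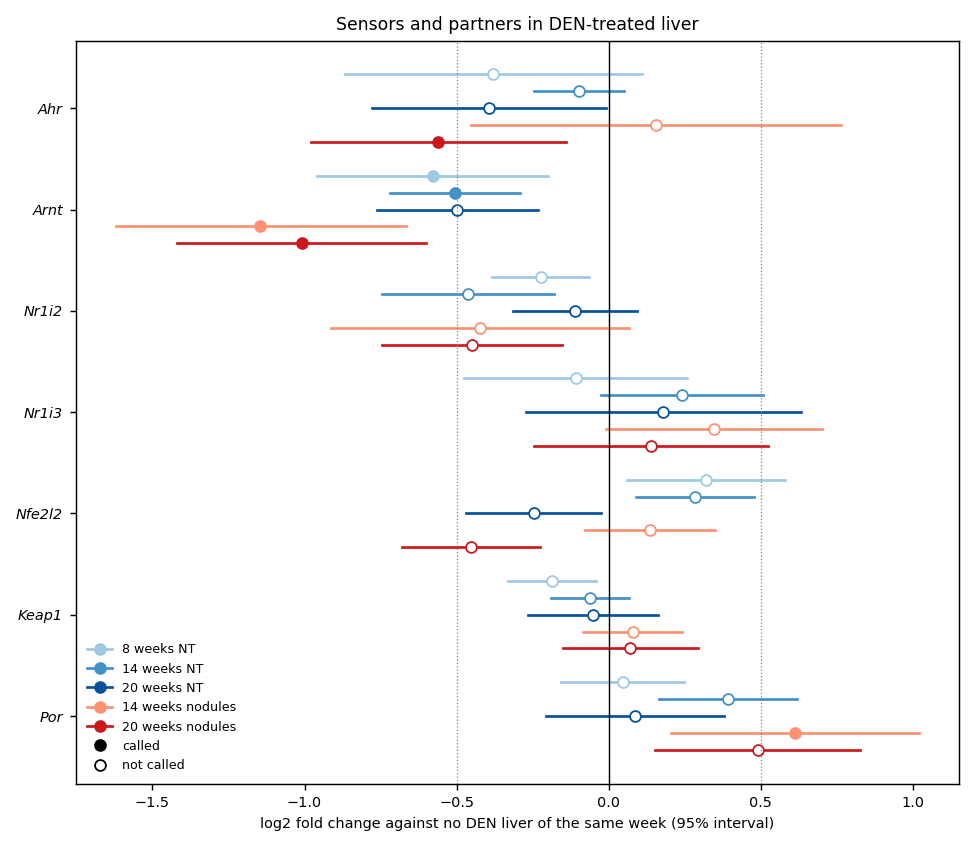
Log2 fold changes of the 7 tested members against no DEN liver of the same week, with 95% intervals (horizontal lines), for NT at 3 weeks (blues) and nodules at 2 weeks (reds), each from 4 rats against 4. Filled points were called, dotted lines mark the minimum size, and the intervals of Arnt lie below 0 in all 5 comparisons.

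The number of members called is set beside the share of all genes called. At 8 weeks NT had 1 of 7 members lower and 0 higher, where 5.21% and 16.5% of all genes tested were called lower and higher. At 14 weeks NT had 1 lower and 0 higher, against 9.85% and 22.8% of all genes. At 20 weeks NT had 0 called, against 3.82% lower and 14.3% higher. In the same edgeR test 3 of 7 members had an unadjusted p under 0.05, beside 4355 of all 10827 genes tested. DESeq2 called 1 member, Arnt, beside 1718 of all genes higher and 538 lower.
Nodules at 14 weeks had 1 lower and 1 higher of 7, against 15.2% and 23.9% of all genes, and nodules at 20 weeks 2 lower and 0 higher, against 15.2% and 23.6%. The median log2 fold change of the members ran from -0.45 in nodules at 20 weeks to 0.13 in nodules at 14 weeks, while that of all genes tested lay between -0.01 and 0.02 in these 5 comparisons.
No member was called between no DEN livers of different ages. Between no DEN livers of 8 and 14 weeks, and of 14 and 20 weeks, edgeR called 0 members and 0% of all genes in either direction, with 1 member at an unadjusted p under 0.05 in each (Arnt, then Nfe2l2), 0 members called by DESeq2, which called 10 and 14 of all genes higher and 10 and 4 lower, and 1038 and 670 of all genes at an unadjusted p under 0.05. The difference between the NT effects of 14 and 8 weeks was called in 0 of 7 members, with 1 at an unadjusted p under 0.05 (Por), against 4.16% of all genes called higher and 4.8% lower. Between 20 and 14 weeks 0 of 7 were called for NT, with 2 at an unadjusted p under 0.05 (Nr1i2 and Nfe2l2), against 0.365% higher and 0.373% lower, and 0 of 7 for nodules, with 1 (Nfe2l2), against 0.00862% higher and 0.0775% lower. Of all genes, 2980 of 11219, 1912 of 11245 and 378 of 11607 had an unadjusted p under 0.05 in these 3 edgeR tests. DESeq2 called 0, 1 and 1 members in these 3 tests, Nfe2l2 in both of the latter, where it called 691, 182 and 5 of all genes higher and 838, 200 and 24 lower. In edgeR, Por passed in the first of these tests without F06 (difference 0.44, adjusted p = 0.0198), and Ahr without F10 (0.59, adjusted p = 0.013) or without the rats numbered F (0.65, adjusted p = 0.00369).

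Nodules were also compared with the liver around them, first without the pairing by rat and then with the rat as a block. From 4 rats against 4, edgeR called 0 of 7 members and 0% of all genes at both weeks, with 2 members (Arnt and Keap1) at an unadjusted p under 0.05 at 14 weeks and 1 (Arnt) at 20 weeks, and DESeq2 called 0 members at either, where it called 10 of all genes higher and 25 lower at 14 weeks and 646 and 256 at 20 weeks. Of all genes, 1348 and 2767 had an unadjusted p under 0.05 at 14 and 20 weeks.
With the rat as a block, Arnt was lower in nodules at 20 weeks (log2 fold change -0.52, adjusted p = 0.00364, edgeR), in a fit that called 9.21% of all genes higher and 5.46% lower. In the same fit Por differed by 0.41 (adjusted p = 0.00199) and Nr1i2 by -0.34 (adjusted p = 0.00747), both below the minimum size. At 14 weeks the blocked fit called 0% of all genes in either direction, and the log2 fold change of Arnt was -0.65 (adjusted p = 0.188).
The direction within rats was the same throughout for 4 members. How many of all genes kept the same direction across these rats was not counted, so no background share can be given. Arnt was lower in the nodules of 8 of 8 rats, by -0.09 to -1.44 on the log2 scale, and Nfe2l2 in 8 of 8, by -0.02 to -0.45. Keap1 was higher in the nodules of 8 of 8 rats, by 0.08 to 0.32, and Por in 8 of 8, by 0.01 to 0.53. Ahr and Nr1i2 were lower in 7 of 8, with F06 the exception at 1.08 and 0.52, and Nr1i3 was split, 4 and 4.

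**Figure D3:**
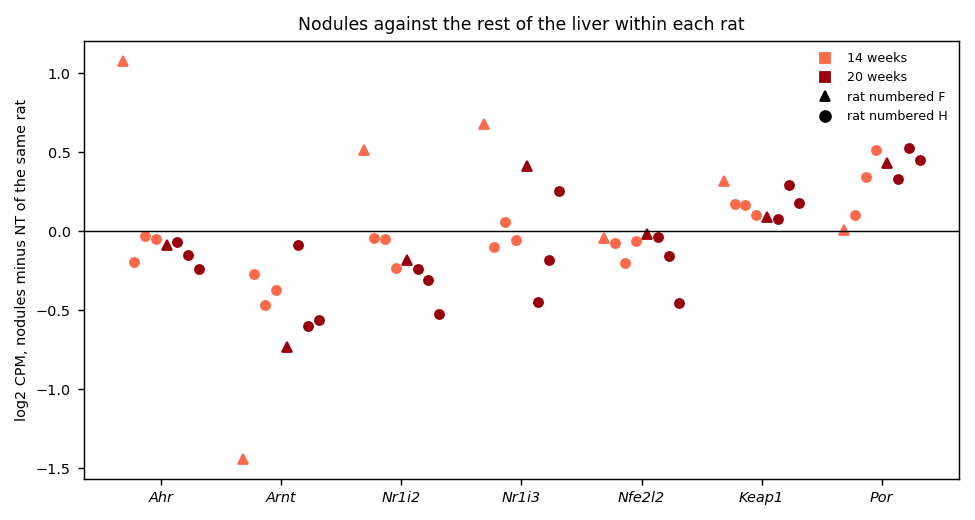
Difference in log2 CPM between the nodules and the NT liver of the same rat, for the 7 tested members and 8 rats (1 point each, 14 weeks light, 20 weeks dark, triangles for rats numbered F). All 8 points lie below 0 for Arnt and Nfe2l2 and above 0 for Keap1 and Por. The share of all genes that do so was not counted.

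The nodules of 1 liver could be compared with each other. The median size of the log2 difference between them was 0.378 for Arnt, 0.332 for Nr1i2, 0.315 for Nr1i3 and 0.225 for Por, and 0.103, 0.101 and 0.0687 for Ahr, Nfe2l2 and Keap1. The largest differences were those of F03, 1.05 for Arnt (5.23 and 10.8 CPM in nodules 1 and 2), and of F06, 0.964 for Ahr. Nodules are 1 library each, so these differences have no replicate check.

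**Figure D4:**
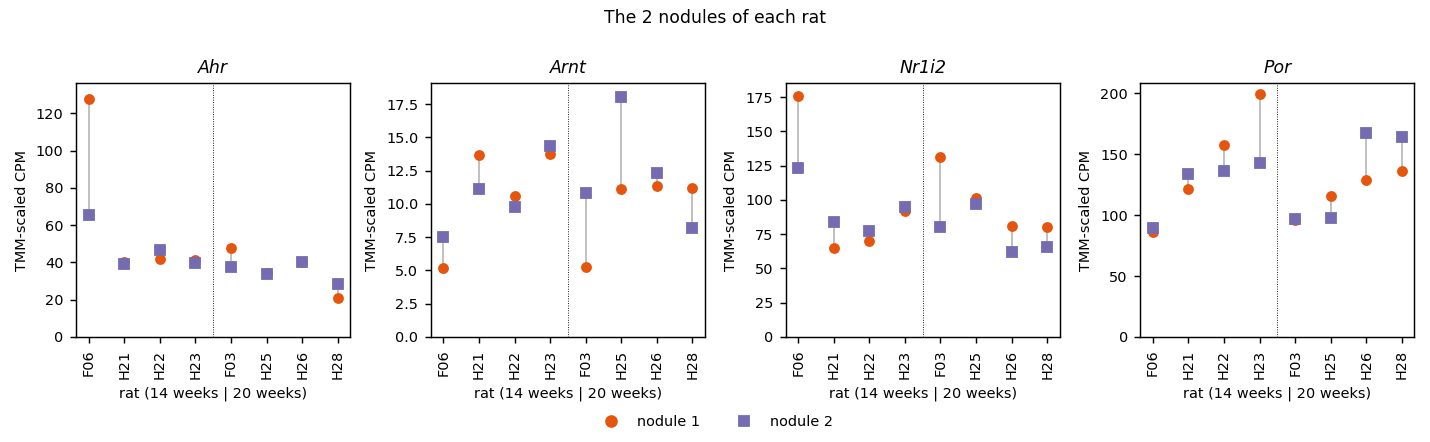
TMM-scaled CPM of Ahr, Arnt, Nr1i2 and Por in nodule 1 (circles) and nodule 2 (squares) of each rat, joined by a line, with 14-week rats left of the dotted line and 20-week rats right of it. The nodules of F06 stand above all others in Ahr, at 127.5 and 65.4, and F06 and F03 hold the lowest single Arnt values, at 5.21 and 5.23.

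Genes known as targets of these sensors were listed as well. Of 6 AHR targets, 5 were tested, and in all 5 comparisons against no DEN 4 were called higher and 1 lower. Cyp1b1 was too low, with a highest group mean of 0.101 CPM.
Cyp1a1, the oxidase used as the classic readout of AHR, rose from 0.843 ± 0.405 CPM (SD, n = 4) to 4.38 ± 0.411 in NT at 8 weeks and from 0.555 ± 0.0428 to 11.6 ± 4.43 in NT at 14 weeks. At 20 weeks it stood at 3.51 ± 2.48 in NT, against 0.716 ± 0.266 in the controls. In no DEN livers it rested on 8 to 34 counts per rat.
Nqo1, a quinone reductase that is also an NRF2 target and is counted in both lists, rose from 6.64 ± 3.29 to 179 ± 97.0 CPM in nodules at 14 weeks (log2 fold change 4.73) and from 9.30 ± 2.36 to 167 ± 82.5 in nodules at 20 weeks (log2 fold change 4.14). Aldh3a1, an aldehyde dehydrogenase, had 0 to 2 counts per rat in no DEN livers at 14 and 20 weeks and reached 106 ± 60.2 and 243 ± 159 CPM in nodules.
Cyp1a2, the caffeine-metabolising oxidase, went the other way, from 423 ± 125 to 157 ± 36.7 CPM in NT and 128 ± 33.6 in nodules at 14 weeks, with log2 fold changes from -0.55 in NT at 8 weeks to -1.84 in nodules at 20 weeks. Ugt1a6, a glucuronosyltransferase, rose by log2 fold changes from 1.66 to 3.76. It shares its last exons with Ugt1a1, and reads there may be split or dropped. The median log2 fold change of the 5 targets was 1.72, 4.10 and 2.54 in NT at 8, 14 and 20 weeks, where that of all genes was -0.01, 0.02 and 0.02.

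NRF2 targets were called higher in larger number at 14 and 20 weeks than at 8 weeks. Of 24 tested, 7 were higher and 1 lower in NT at 8 weeks, 18 and 1 at 14 weeks and 16 and 1 at 20 weeks, where 16.5%, 22.8% and 14.3% of all genes were called higher and 5.21%, 9.85% and 3.82% lower. In nodules 21 were higher and 1 lower at 14 weeks and 22 and 1 at 20 weeks, where 23.9% and 23.6% of all genes were higher and 15.2% lower at each week. These shares of all genes hold for the other lists in the same comparisons too. Their median log2 fold change was 0.29, 1.45 and 1.02 in NT and 1.90 and 1.69 in nodules, that of all genes between -0.01 and 0.02.
Gstp1, the glutathione transferase long used to stain preneoplastic rat hepatocytes, was at 8.93 ± 1.198 CPM in no DEN livers at 14 weeks, 1359 ± 665 in NT and 2324 ± 637 in nodules. In NT at 8 weeks it stood at 137 ± 112 against 10.9 ± 4.08. Slc7a11, the cystine carrier, had a mean of 0.0804 CPM in no DEN livers at 14 weeks and reached 94.6 ± 46.03 in nodules.
Me1, malic enzyme, was the 1 target lower each time, with log2 fold changes from -0.82 to -1.08. Blvrb, biliverdin reductase B, was the 1 target not called in nodules at 20 weeks (log2 fold change 0.11).
Targets of AHR and NRF2 also differed between 8 and 14 weeks of injections. The NT effect was larger at 14 weeks in 3 of 5 AHR targets (Cyp1a1, Nqo1 and Ugt1a6, with differences of 2.04, 2.39 and 1.95) and in 13 of 24 NRF2 targets, for example Gstp1 by 3.63 (SE 0.735, adjusted p = 0.0124, edgeR), where 4.16% of all genes were called higher and 4.8% lower. Between 14 and 20 weeks of the study edgeR called a difference in the NT effect of 0 of 5 and 0 of 24, where 0.365% of all genes were called higher and 0.373% lower. At an unadjusted p under 0.05 were 2 and 4, beside 1912 of all 11245 genes tested.

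PXR and CAR targets were split. Of 17 genes, 16 were tested at 8 weeks and all later. In NT 4 were higher and 3 lower at 8 weeks, 4 and 6 at 14 weeks, and 3 and 6 at 20 weeks, and in nodules 4 and 8 at 14 weeks and 3 and 11 at 20 weeks. Of all genes, 16.5%, 22.8% and 14.3% were called higher in NT and 5.21%, 9.85% and 3.82% lower. In nodules 23.9% and 23.6% of all genes were higher and 15.2% lower at each week. Their median log2 fold change went from -0.14 in NT at 8 weeks to -1.07 in nodules at 20 weeks.
Cyp2c7 fell from 2842 ± 833 CPM to 729 ± 206 in NT and 368 ± 221 in nodules at 20 weeks, and Sult2a1, a bile acid and steroid sulfotransferase, from 215 ± 72.0 to 47.2 ± 3.24 and 38.9 ± 8.91 at 14 weeks. Abcc3, a basolateral efflux pump, rose from 2.23 ± 0.525 to 83.2 ± 33.8 in NT and 107 ± 26.9 in nodules at 14 weeks, and Ephx1, microsomal epoxide hydrolase, from 759 ± 57.2 to 3042 ± 868 and 3399 ± 1011. Both are also on the NRF2 list. The other riser in all 5 comparisons was Cyp3a62, with log2 fold changes from 1.08 to 1.74.
Cyp2b1 and Cyp2b2, the textbook CAR targets, were lower in nodules at 20 weeks (log2 fold changes -1.52 and -1.47) and not called elsewhere. They were singled out after their values were seen, and as near-identical copies they may exchange reads, as may the Cyp3a genes.

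**Figure D5:**
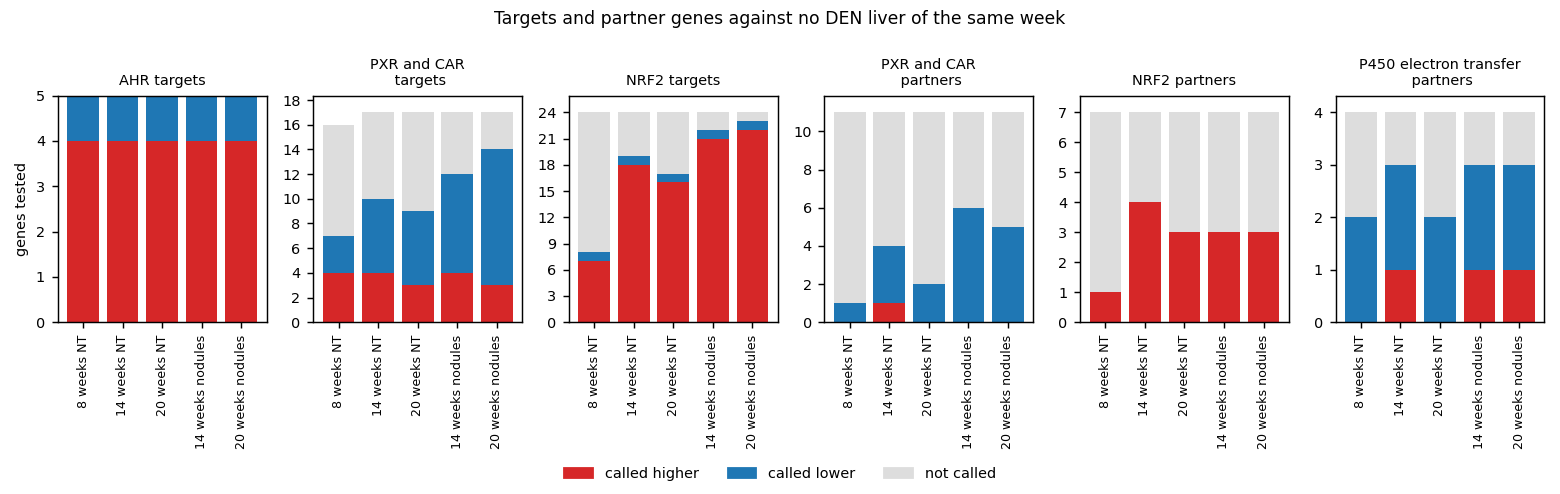
Number of tested genes called higher (red), lower (blue) or not called (grey) against no DEN liver of the same week, for 6 lists of targets and partners (panels, each with its own linear axis from 0) in the 5 comparisons. All 5 tested AHR targets are called in every comparison and of 24 NRF2 targets 8, 19, 17, 22 and 23 are called, from left to right.

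The genes of proteins that work with the sensors were the other lists, to be read beside the same shares of all genes. Arnt2, the second ARNT, was too low to be tested against no DEN, with a highest group mean of 0.265 CPM.
Among 11 partners of PXR and CAR, 0 to 1 were higher and 1, 3 and 2 lower in NT at 8, 14 and 20 weeks, and 6 and 5 lower in nodules at 14 and 20 weeks. Rxra, the obligate partner, fell from 117 ± 17.99 to 66.2 ± 11.1 CPM in NT and 31.7 ± 19.1 in nodules at 14 weeks (log2 fold changes -0.79 and -1.91). Rxrg, another RXR, had log2 fold changes of -0.65 in NT at 14 weeks and -0.69 and -0.83 in nodules at 14 and 20 weeks, and Ncoa2, a nuclear receptor coactivator, of -0.90 and -0.88 in nodules. Hnf4a, the hepatocyte regulator that supports both receptors, fell from 734 ± 79.9 to 401 ± 75.4 in NT and 338 ± 33.0 in nodules at 20 weeks. The 1 partner called higher was Ppargc1a, in NT at 14 weeks (log2 fold change 0.54).
Among 7 partners of NRF2, 1, 4 and 3 were higher in NT and 3 in nodules at each week, and 0 were lower. Maff, Mafg and Mafk, the small MAF proteins that NRF2 pairs with, made up the calls at 20 weeks and in nodules. Maff rose from 0.587 ± 0.128 CPM to 8.51 ± 3.74 in NT and 11.97 ± 3.37 in nodules at 14 weeks.
Among 4 genes listed as partners of P450 electron transfer beside POR, Cyb5b and Cyb5r3 fell in all 5 comparisons, by log2 fold changes of -0.55 to -1.14 and -0.68 to -1.01. Pgrmc1, a haem-binding P450 partner, rose in NT at 14 weeks (log2 fold change 0.54) and in nodules (0.75 and 0.70). Cyb5a was not called.
Between nodules and NT edgeR called 0 genes of these 6 lists at either week without the block, in fits that called 0% of all genes. In these fits, at 20 weeks 4 of 5 AHR targets, 20 of 24 NRF2 targets and 10 of 17 PXR and CAR targets had an unadjusted p under 0.05, beside 2767 of all 11546 genes tested. At 14 weeks they were 0, 3 and 4, beside 1348 of 11466. These fits leave out the pairing by rat. With the block, edgeR called 9.21% of all genes higher and 5.46% lower at 20 weeks, and the lists were not counted in that fit. The NT effect on PXR and CAR targets was larger at 14 than at 8 weeks for Abcc3 (difference 3.33, adjusted p = 0.00661, edgeR) and lower for Cyp3a9 (-1.30, adjusted p = 0.0431, edgeR), and at 20 weeks it was lower than at 14 weeks for Abcb1a, a drug efflux pump (-1.20, adjusted p = 0.0234, edgeR), where 0.365% of all genes were called higher and 0.373% lower.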

How the data were processed

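The deposited files hold read-pair counts per gene, 1 file for each of the 40 libraries. To make these counts the authors prepared stranded mRNA libraries, aligned read pairs to rat rn6 with STAR 2.7.1a and counted exons with HTSeq on the reverse strand, leaving out pairs that matched several places. Pairs that only partly overlap an exon were not counted. Between 21.5% and 34.5% of pairs per library did not lie fully in the exons of any gene. A further 7.96% to 16.3% matched several places, and pairs shared between genes were also left out. Lines that name no gene were left out of library sizes and tests. Depth ranged from 20528515 to 160622633 counted pairs per library.

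The counts of both nodules of a rat were summed, so that 1 rat is 1 replicate. Genes were filtered with edgeR's filterByExpr, scaled by TMM and tested with the quasi-likelihood test (edgeR 4.0.16, R 4.3.3), each comparison on its own groups, with Benjamini-Hochberg adjustment over all genes tested. Interactions of treatment and week were called at an adjusted p of at most 0.05 with no minimum fold change. A prior count of 2 enters log2 CPM. The authors' own tests used DESeq2 1.22.2, and DESeq2 1.42.0 served here as an alternative, beside RLE scaling, no filter, all groups in 1 fit, other call rules, single nodules, and fits without each rat or without the rats numbered F. The scripts were tested on simulated data. No pair of replicate libraries agreed within sampling noise.

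NT and nodules of 1 rat carry the same rat number in the labels and were therefore also fitted with the rat as a block. Deviations of NT and nodules of the same rat from their group means correlated between 0.388 and 0.617 at 14 weeks and between 0.578 and 0.65 at 20 weeks. For rat H21 the correlation with another rat was higher, 0.52 against 0.493. No DEN rats are other animals and cannot be paired.

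The members and gene lists were chosen with earlier results of these data known. From each list the text names the 2 largest rises and falls among called genes with a mean of at least 1 CPM per comparison, and it also names some others where a count is small. Genes most alike were those of highest Pearson r of log2 CPM among 10066 genes. Promoters are RefSeq's on GRCr8, searched for each motif on both strands. Slco1a4, Nfe2l1, Krt7 and Cd79a of the lists were not analysed here. A list of partners of the AHR complex is not reported here.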

Additional observations from a re-analysis of the deposited data

Results flagged for a closer look

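Of 64 groups of 4 rats tested for a sample apart from the rest, 3 held one, and chance flags about 1 in 20 groups. In nodules at 14 weeks, Ahr stood at 90.59 CPM in rat F06 and at 38.18 to 43.09 in the other 3 rats. In NT at 14 weeks, Por stood at 84.37 CPM in the same rat and at 111.4 to 116.8 in the others. In no DEN livers at 14 weeks, Ahrr stood at 0.03311 CPM in rat H12, which is 1 count, and at 0 in the other 3 rats.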

How the results depend on the processing

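Of 1414 values of single members under other settings, 1347 stayed on the same side of the threshold, 20 lost a call, 47 gained one and 0 called values reversed, while 68 uncalled values changed sign. With a log2 fold change of at least 1 and an adjusted p of at most 0.01, the members called went from 1 to 0 in NT at 8 and 14 weeks and from 2 to 1 in nodules at both weeks. Without a minimum fold change they were 3, 4 and 1 in NT at 8, 14 and 20 weeks and 5 in nodules at 20 weeks. In NT at 20 weeks, DESeq2, RLE scaling, no filter on low counts and all 8 groups in 1 fit each gave 1 in place of 0, and for the change of the NT and nodule effects from 14 to 20 weeks DESeq2 gave 1 in place of 0. Without the rats numbered F the counts were 2 in NT at 14 weeks, 3 in nodules at 14 weeks (Nr1i2 gained, -0.67), 4 in nodules at 20 weeks and 1 for the change of the NT effect from 8 to 14 weeks (Ahr, difference 0.65), while in NT at 8 weeks 1 member was called as before but Ahr (-0.74) in place of Arnt (-0.35), and with nodule 2 alone 4 in nodules at 20 weeks. Leaving out single rats gave 0 to 1 in NT at 8 weeks, 0 to 2 at 14 weeks, 0 to 1 at 20 weeks, 1 to 3 in nodules at 14 weeks and 1 to 4 at 20 weeks, and 0 to 1 for both changes of the NT effect. With the rat as a replicate block, nodules against NT at 20 weeks gave 1 member, Arnt, in edgeR and 1 in DESeq2, and this paired fit changed no other call. The stricter and looser rules change these counts by construction, and for the other settings the cause was not tested. With 4 rats per group, differences under the minimum size were often within the spread, and Ahrr, with 0 to 11 counts per rat, was not tested.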
